A study of Mus musculus with 6 samples.

Results

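The genes described are the 39 mouse genes whose symbols begin with Nduf and that had at least 1 array probe set assigned to that gene alone, out of 12393 such genes on the array. They encode nuclear subunits of respiratory complex I and the assembly factors that carry the Nduf name. Each gene was represented by its brightest probe set. Probe sets that list several symbols, which are the only ones here for Ndufb4, Ndufa11 and Ndufs6, were left out, and other subunits without a probe set of their own were not analysed here. Tests were run on the 7436 genes that made up the brightest 60% by mean log2 intensity, and all 39 were among them.

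YY1aKO mice were Yy1 flox/flox and carried an Adiponectin Cre transgene, whose promoter works in adipocytes. Control mice were also Yy1 flox/flox but had no Cre, so the presence of Cre and the loss of Yy1 cannot be told apart. Mice of both groups were 8 weeks old, of mixed C57BL6 and 129 background, and had been kept at 4 °C for 4 days. White adipose tissue was measured from 3 YY1aKO and 3 control samples, each on a 1-colour Affymetrix array. The labels disagree on the depot, since titles and tissue field give epididymal (EWAT) or visceral fat while the series title and descriptions give subcutaneous fat. The title also calls the deletion specific to brown fat, where the genotype field calls it adipose-specific. No label says whether each sample is a separate animal, so p-values measure only the spread between these samples. Other cells of the tissue should keep Yy1, which was not measured here.

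Complex I is the entry point of NADH electrons into the mitochondrial respiratory chain. Its peripheral arm holds the N module, which oxidises NADH with a flavin and iron-sulfur clusters, and the Q module, which passes the electrons to ubiquinone. Its membrane arm pumps protons, and is built around subunits encoded in mitochondrial DNA, of which none had a probe set here. The remaining accessory subunits, all encoded in the nucleus, are needed for assembly or stability, and they are grouped here by the part of the complex in which they lie. In cold-exposed fat, oxidative mitochondria feed thermogenesis in brown and beige adipocytes. The deleted gene encodes YY1, a DNA-binding protein that activates some genes and represses others and is known to act with PGC-1alpha on mitochondrial genes.

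Yy1 read 373, 323 and 315 in YY1aKO 1 to 3, against 1785, 1846 and 1596 in control 1 to 3, which separates the groups on every array. This is its brightest probe set, with a log2 fold change of -2.37, while the mean of all its probe sets gave -1.17. Adipoq, the defining adipocyte hormone, read 19767 to 21714 in YY1aKO and 18586 to 24774 in control, so adipocyte RNA was abundant on all arrays. Control 2 stood apart. Over all genes, which are not independent replicates, its Pearson correlation with any other array was 0.81 to 0.89, and it carried epididymal genes, with Lcn8 at 28166 against 49.2 to 59.9 on the others. Gpx5, another epididymal gene, read 21047 on control 2, 639 on control 3 and 37.2 to 41.5 elsewhere. The summed level of 8 white adipocyte markers was 85030 to 91117 in YY1aKO, 102303 to 108827 in controls 1 and 3 and 66769 in control 2. These 8 did not go one way without control 2, with Fabp4, Lipe and Slc2a4 positive and the others negative. Only Retn passed there, at 3171, 8225 and 8440 in YY1aKO against 19778 and 18733 in controls 1 and 3. Because control 2 stood apart, counts are given with all 6 arrays and without it, and values are from 6 arrays unless said otherwise. In whole tissue, fewer cells of a type and less RNA per cell cannot be told apart.

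Complex I genes changed in both directions. With 6 arrays, 6 of the 39 genes were higher in YY1aKO than in control, 4 were lower and 29 did not pass (limma, Benjamini-Hochberg adjusted p under 0.05 over all genes tested). Of all genes tested, 20.7% passed, 12.9% higher and 7.8% lower, and of the Nduf genes 25.6% passed, so their share lay near that of the array. The genes that rose were Ndufa12, Ndufaf4, Ndufb3, Ndufb6, Ndufb7 and Ndufc2, and those that fell were Ndufa3, Ndufa5, Ndufb11 and Ndufc1. The median log2 fold change, YY1aKO minus control, was 0.18 over the Nduf genes and 0.06 over all genes tested, and no Nduf gene differed by 1 log2 unit, or 2-fold. When every array was set to the same median, 11 Nduf genes were higher and 4 lower, against 16.3% and 6.4% of all genes tested. The medians were then 0.25 for Nduf genes and 0.12 for all genes, and the same 4 genes were lower.

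Without control 2, 12 Nduf genes were higher, 9 were lower and 18 did not pass, against 25.5% higher and 19.6% lower over all genes (45.1% in all). All 10 genes that passed with 6 arrays passed in the same direction. With 6 arrays as the start, the calls also depended on single arrays. Without control 3 only Ndufa5 passed, and without YY1aKO 1, YY1aKO 2 or YY1aKO 3 none did in limma, where 17, 15 and 15 Nduf genes had an unadjusted p under 0.05. Over all genes tested, 2.96% were higher and 2.34% lower without control 3, and 2.03% and 1.37% without YY1aKO 1. These shares were 0.215% and 0.229% without YY1aKO 2, and 0.108% and 0.215% without YY1aKO 3. When 1 YY1aKO array was left out as well as control 2, 6 to 13 Nduf genes were higher and 7 to 9 lower. Over all genes tested, 18.4% to 21.1% were then higher and 14.1% to 15.7% lower. In each of these fits Ndufa3, Ndufa5, Ndufb8, Ndufb11, Ndufc1 and Ndufs3 were lower. Ndufaf1, Ndufaf4, Ndufb3, Ndufb6, Ndufc2 and Ndufs8 were higher in each. Leaving out control 1 or control 3 instead leaves a single control, so no counts are given there. Over all 5 fits, log2 fold changes ran from -1.04 to -0.32 for these lower genes and from 0.38 to 0.7 for these higher genes.

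**Figure D1:**
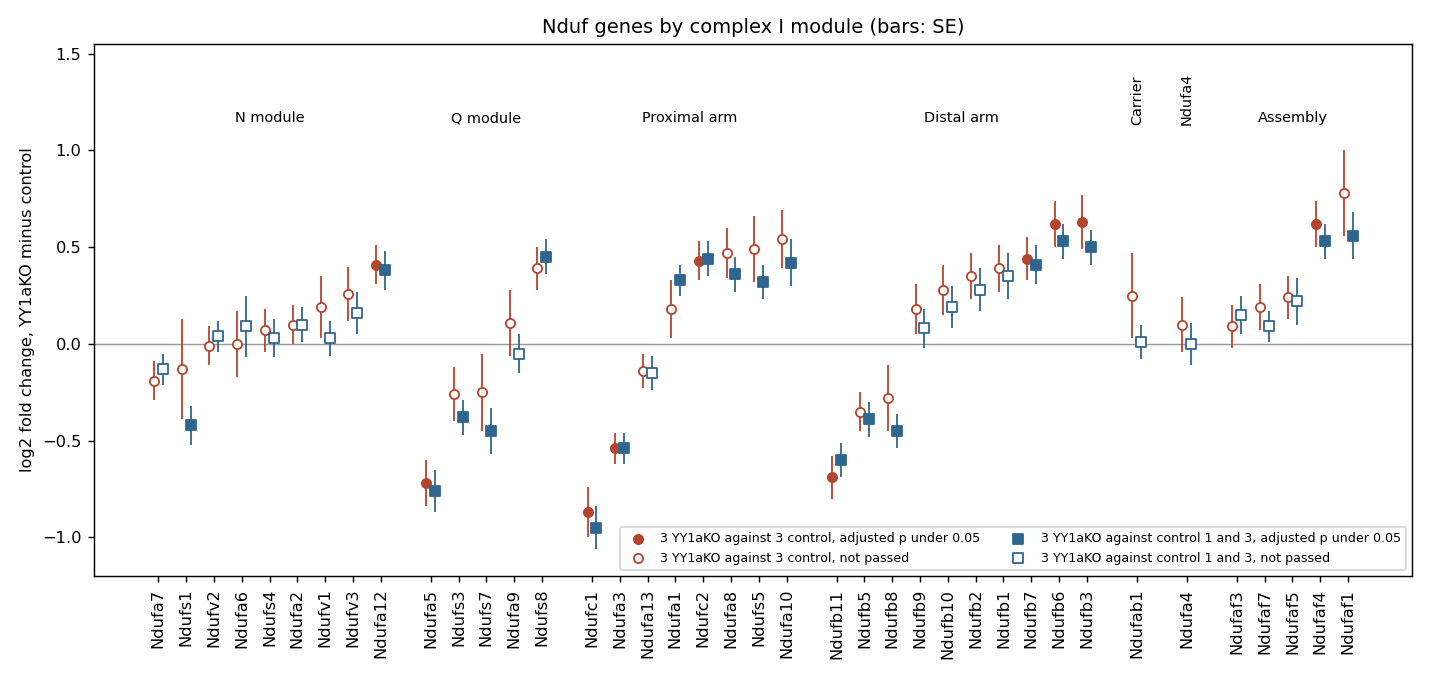
Log2 fold change (y axis, YY1aKO minus control, bars SE) of the 39 Nduf genes (x axis), grouped by module, with 6 arrays (circles) and without control 2 (squares), filled where the adjusted p was under 0.05. Fold changes run from -0.87 (Ndufc1) to 0.78 (Ndufaf1) with 6 arrays, and genes of the distal membrane arm run from -0.69 (Ndufb11) to 0.63 (Ndufb3).

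Sequence at the gene starts is shown because the deleted gene is itself a transcription factor with a known recognition sequence. RefSeq promoters (GRCm38.p6, 250 bases before to 50 after the start) were at hand for 36 of the 39 genes, all but Ndufa2, Ndufb9 and Ndufs1. They were searched on both strands for AANATGGC, the core of the YY1 motif, and a gene with several windows (Ndufa5 and Ndufa7) counted if any held it. The letters occur in 6.05% of all 32851 mouse promoters in the table, in 669 of the 6075 genes tested that have one and in 12 of the 36 Nduf promoters (33.3%). The stretches below run from 10 bases before to 50 after the annotated start, with the YY1 letters in capitals. The first 4 genes were lower in YY1aKO without control 2, the next 2 did not pass, and the last 3, which rose, hold no match.
Ndufc1 (chr3:51408906-51408965, minus strand): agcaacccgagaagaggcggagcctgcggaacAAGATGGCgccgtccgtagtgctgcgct
Ndufa3 (chr7:3617363-3617422, plus strand): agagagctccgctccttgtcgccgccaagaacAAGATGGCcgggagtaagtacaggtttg
Ndufs7 (chr10:80249439-80249498, plus strand): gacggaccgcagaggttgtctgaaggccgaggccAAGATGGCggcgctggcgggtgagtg
Ndufb8 (chr19:44555393-44555452, minus strand): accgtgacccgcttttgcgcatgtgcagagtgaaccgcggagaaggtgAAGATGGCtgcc
Ndufa9 (chr6:126849095-126849154, minus strand): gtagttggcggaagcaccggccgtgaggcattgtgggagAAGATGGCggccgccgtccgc
Ndufs4 (chr13:114388045-114388104, minus strand): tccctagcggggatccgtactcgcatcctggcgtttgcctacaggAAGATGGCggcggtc
Ndufb6 (chr4:40279372-40279431, minus strand): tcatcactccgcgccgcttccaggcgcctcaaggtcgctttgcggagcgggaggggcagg
Ndufb3 (chr1:58586387-58586446, plus strand): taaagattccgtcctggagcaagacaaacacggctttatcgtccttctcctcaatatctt
Ndufc2 (chr7:97399993-97400052, plus strand): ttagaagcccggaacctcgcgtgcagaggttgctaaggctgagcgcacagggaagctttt

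In Ndufc1 and Ndufa3, genes of the proximal membrane arm that fell with 6 arrays, the letters lie at the same place, base 23 to 30 after the start, counted from 1 at the start. They begin at base 25 in Ndufs7 and at base 39 in Ndufb8. The ATG within them can also be a translation start, which was not tested. Over all promoters, AAGATGGC began after the start 141 times on the gene's strand and 42 times on the other in plus-strand genes. In minus-strand genes these counts were 143 and 47. In Ndufb11 and Ndufb5, which were lower without control 2, the matches lie upstream. They begin at base -211 in Ndufb11 and at -73 and -225 in Ndufb5, of which the match at -73 is printed. Ndufs8 was the one gene of the 12 higher without control 2 with a match, also upstream, from base -165.
Ndufb11 (chrX:20617795-20617854, minus strand): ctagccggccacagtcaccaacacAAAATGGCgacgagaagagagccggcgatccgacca
Ndufb5 (chr3:32736963-32737022, plus strand): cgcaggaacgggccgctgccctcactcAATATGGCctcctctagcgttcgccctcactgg
Ndufs8 (chr19:3912905-3912964, minus strand): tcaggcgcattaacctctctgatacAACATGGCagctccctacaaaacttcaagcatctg

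Counted by the direction of change, the letters stood in the promoters of 3 of 4 Nduf genes that were lower with 6 arrays and 0 of 6 that were higher, with 9 of 26 among those that did not pass. Without control 2 they stood in 6 of 8 lower genes with a promoter, 1 of 12 higher genes and 5 of 16 others. Over all genes tested the same shares without control 2 were 15.5% of lower, 8.84% of higher and 10.5% of other genes, and with 6 arrays 22.6%, 9.14% and 10.2%. These are counts with no test, the letters were chosen with the calls known, and a match is not a measured binding site. With the stricter letters AAGATGGC, which are in 2.75% of all promoters, 4 of 8 lower and 0 of 12 higher Nduf promoters held a match, and over all genes tested 7.5% of lower, 4.9% of higher and 5.65% of other genes. The consensus of NRF1, a known regulator of respiratory genes, stood in 6 of the 36 Nduf promoters (16.7%), near the 13.0% of all genes tested (4.6% of all promoters). Among Nduf genes without control 2 it was in 1 of 8 lower (Ndufa5) and 3 of 12 higher promoters (Ndufa8, Ndufaf4 and Ndufs5), and over all genes tested in 8.53% of lower and 17.6% of higher genes. The letters TCAAGGTCA, known from the nuclear receptors of the ERR family, were in 0 of the 36 and in 0.362% of all genes tested (0.423% of all promoters). CCGGAAGT, known from GABP, was in 1 of the 36 (2.78%) and in 9.93% of all genes tested (3.89% of all promoters).

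**Figure D2:**
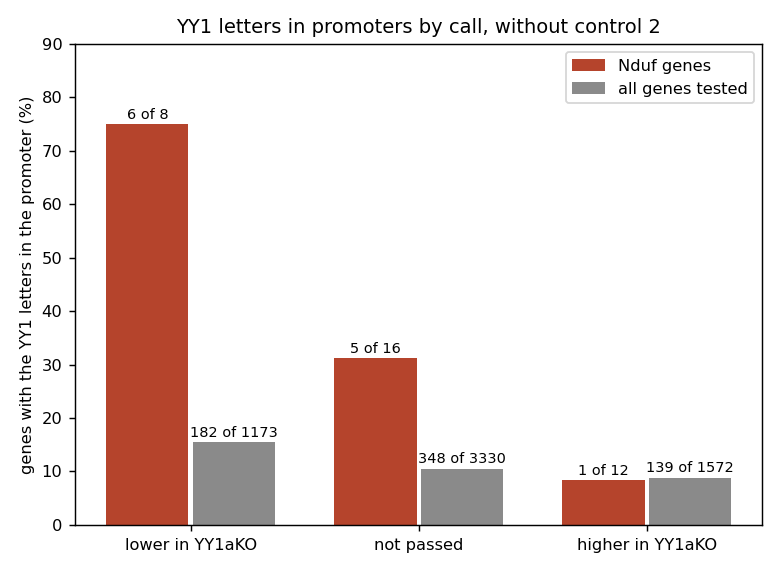
Share of genes with the YY1 letters in the promoter (y axis, percent, from 0) among genes lower, not passed and higher in YY1aKO without control 2 (x axis), for Nduf genes (red) and all genes tested (grey), with counts above the bars. Among Nduf genes 6 of 8 lower and 1 of 12 higher genes had a match.

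In the N module, 1 of 9 measured genes was higher and none was lower with 6 arrays (12.9% and 7.8% of all genes tested). Without control 2, 1 was higher and 1 lower (25.5% and 19.6% of all genes tested). Log2 fold changes ran from -0.19 to 0.41 with 6 arrays, with a median of 0.07 (0.04 without control 2). Ndufa12, an accessory subunit late to join this arm, read 8001, 9211 and 9161 in YY1aKO and 6953, 6397 and 6505 in control. All YY1aKO values lay above all control values, and the log2 fold change was 0.41 ± 0.10 (SE, n = 3 per group, limma adjusted p = 0.0396). The call was kept without control 2 (0.38, adjusted p = 0.023) and lost with no intensity filter and with the mean of all probe sets (adjusted p = 0.0517 and 0.0611). The brightest 3 of its 4 probe sets are of the kind that can bind related transcripts (suffix _s_at or _x_at), and the probe set without that suffix lay below the intensity filter, at 29.7 to 37.2 in YY1aKO and 30.5 to 34.2 in control.

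The flavin and iron-sulfur subunits of the N module did not pass with 6 arrays. Ndufv1, which binds NADH and the flavin, read 3859, 4231 and 4360 in YY1aKO and 4253, 2906 and 3897 in control (log2 fold change 0.19 ± 0.16, adjusted p = 0.448). The groups overlapped, and control 2 held the lowest value. Ndufv2, the neighbouring iron-sulfur subunit, read 4207 to 4620 in YY1aKO and 4204 to 4799 in control (-0.01 ± 0.10). Ndufs1, the largest core subunit, read 1229, 1424 and 1398 in YY1aKO and 1903, 991 and 1696 in control. Its YY1aKO values lay between control 2 and the other controls, so that the log2 fold change was -0.13 ± 0.26 with 6 arrays and -0.42 ± 0.10 without control 2 (adjusted p = 0.753 and 0.0219 in limma). Ndufa2, Ndufa6, Ndufa7, Ndufs4 and Ndufv3 passed in neither fit.

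In the Q module 1 of 5 measured genes was lower and none higher with 6 arrays (7.8% and 12.9% of all genes tested). Without control 2, 3 were lower and 1 higher (19.6% and 25.5% of all genes tested). The median log2 fold change was -0.25 with 6 arrays and -0.38 without control 2, where all genes had 0.06 and 0.03. Ndufa5, an accessory subunit of this arm, read 1044, 1119 and 1187 in YY1aKO and 2082, 1753 and 1712 in control. The highest YY1aKO value lay well below the lowest control value, with a log2 fold change of -0.72 ± 0.12, or 1.65-fold lower (limma adjusted p = 0.0141, n = 3 per group). Its second probe set, at 810 to 1047 in YY1aKO and 1269 to 1511 in control, gave -0.57 and also passed when every probe set was tested.

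The core subunits of the Q module moved apart without control 2. Ndufs3 read 3088, 3504 and 3491 in YY1aKO and 4458, 3407 and 4291 in control, and Ndufs7, which carries the last iron-sulfur cluster before ubiquinone, read 2478, 2925 and 3099 against 4065, 2533 and 3671. In both genes control 2 lay within the YY1aKO range while controls 1 and 3 lay above it. Their log2 fold changes were -0.26 ± 0.14 and -0.25 ± 0.20 with 6 arrays and did not pass, and -0.38 ± 0.09 and -0.45 ± 0.12 without control 2 (limma adjusted p = 0.019 and 0.0263). Ndufs8, which carries a pair of iron-sulfur clusters, read 5054, 5587 and 5850 in YY1aKO and 3920, 4518 and 4124 in control. It did not overlap between groups and lay at the threshold with 6 arrays (0.39 ± 0.11, adjusted p = 0.05001), and it rose by 0.45 ± 0.09 without control 2 (adjusted p = 0.0125). Ndufa9, a subunit near the ubiquinone site, did not pass in either fit (0.11 and -0.05). Of the 6 core subunits measured in both modules, none passed with 6 arrays, and without control 2 Ndufs1, Ndufs3 and Ndufs7 were lower and Ndufs8 was higher.

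The proximal membrane arm, next to the joint with the peripheral arm, held the largest fall among the Nduf genes. Of 8 genes 1 was higher and 2 were lower with 6 arrays (12.9% and 7.8% of all genes tested). Without control 2, 5 were higher and 2 lower (25.5% and 19.6% of all genes tested). The median log2 fold changes of this arm were 0.30 and 0.32. Ndufc1, a small membrane subunit, read 2833, 3116 and 3535 in YY1aKO and 6295, 5140 and 5909 in control. No YY1aKO value came near the controls, and the log2 fold change was -0.87 ± 0.13, or 1.83-fold lower (limma adjusted p = 0.0119), and -0.95 ± 0.11 without control 2. Its second probe set, at 1730 to 2042 in YY1aKO and 3253 to 3862 in control, gave -0.91.

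Ndufa3, another small subunit of this arm, read 4716, 4829 and 4996 in YY1aKO and 7193, 7148 and 6863 in control. It had a narrow spread in both groups (SD of 0.04 log2 units in each), and the log2 fold change was -0.54 ± 0.08 (adjusted p = 0.0128), the same without control 2. Ndufc2, which lies beside Ndufc1 in the complex, went the other way. It read 7048, 7944 and 7783 in YY1aKO and 5341, 5741 and 5820 in control, a log2 fold change of 0.43 ± 0.10 (adjusted p = 0.0307), and 0.44 without control 2 (adjusted p = 0.0125). This is an _s_at probe set, and the other one for Ndufc2, at 5193 to 5522 in YY1aKO and 4220 to 4680 in control, gave 0.29 and did not pass (adjusted p = 0.0743 without _s_at and _x_at probe sets). The call was also lost when the arrays were quantile normalized again (0.37, adjusted p = 0.052). Neither probe set overlapped between groups.

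Of the other genes of this arm, Ndufa8, Ndufa10 and Ndufs5 lay above all controls in YY1aKO but missed the threshold with 6 arrays (log2 fold changes 0.47, 0.54 and 0.49, limma adjusted p = 0.0558, 0.0564 and 0.0915). Control 2 held the lowest value of each, and without it they passed at smaller fold changes (0.36, 0.42 and 0.32). Ndufa1 read 10060, 10230 and 10983 in YY1aKO and 8234, 11347 and 8382 in control, so control 2 lay above every YY1aKO array. It was higher only in the fit without control 2 (0.33 ± 0.08, adjusted p = 0.0209). Ndufa13, also known for a part in cell death, passed in neither fit (-0.14 and -0.15).

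In the distal membrane arm 3 of 10 genes were higher and 1 was lower with 6 arrays (12.9% and 7.8% of all genes tested). Without control 2, 3 were higher and 3 lower (25.5% and 19.6% of all genes tested). The median log2 fold changes of this arm were 0.32 and 0.23. Ndufb3 read 5304, 5668 and 5784 in YY1aKO and 4118, 3041 and 3766 in control (log2 fold change 0.63 ± 0.14, limma adjusted p = 0.0287). Ndufb6 read 4560, 5288 and 5175 in YY1aKO and 3437, 2881 and 3472 in control (0.62 ± 0.12, adjusted p = 0.0215). Ndufb7 read 4507, 5141 and 5403 in YY1aKO and 3831, 3503 and 3714 in control (0.44 ± 0.11, adjusted p = 0.0372). All 3 are accessory subunits of the far end of the membrane arm, and in each the YY1aKO values lay above every control. Without control 2 they rose by 0.50, 0.53 and 0.41.

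Ndufb11, an X-linked subunit of the same arm, read 4438, 4724 and 5101 in YY1aKO and 7074, 8536 and 7361 in control. It was lower on every YY1aKO array, with a log2 fold change of -0.69 ± 0.11, or 1.61-fold lower (limma adjusted p = 0.0154), and its 2 further probe sets gave -0.65 and -0.75. Ndufb8, a subunit often used to gauge complex I protein, read 4125, 4313 and 4433 in YY1aKO and 6249, 4154 and 5495 in control. Control 2 lay within the YY1aKO range, so that Ndufb8 differed by -0.28 ± 0.17 with 6 arrays (adjusted p = 0.261) and by -0.45 ± 0.09 without control 2 (adjusted p = 0.0113). Ndufb5 did not overlap between groups (2711 to 3088 in YY1aKO, 3505 to 3986 in control) and passed only without control 2 (-0.39 ± 0.09, adjusted p = 0.0189). Ndufb1, Ndufb2, Ndufb9 and Ndufb10 had positive differences, from 0.18 to 0.39 with 6 arrays, and passed in neither fit.

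**Figure D3:**
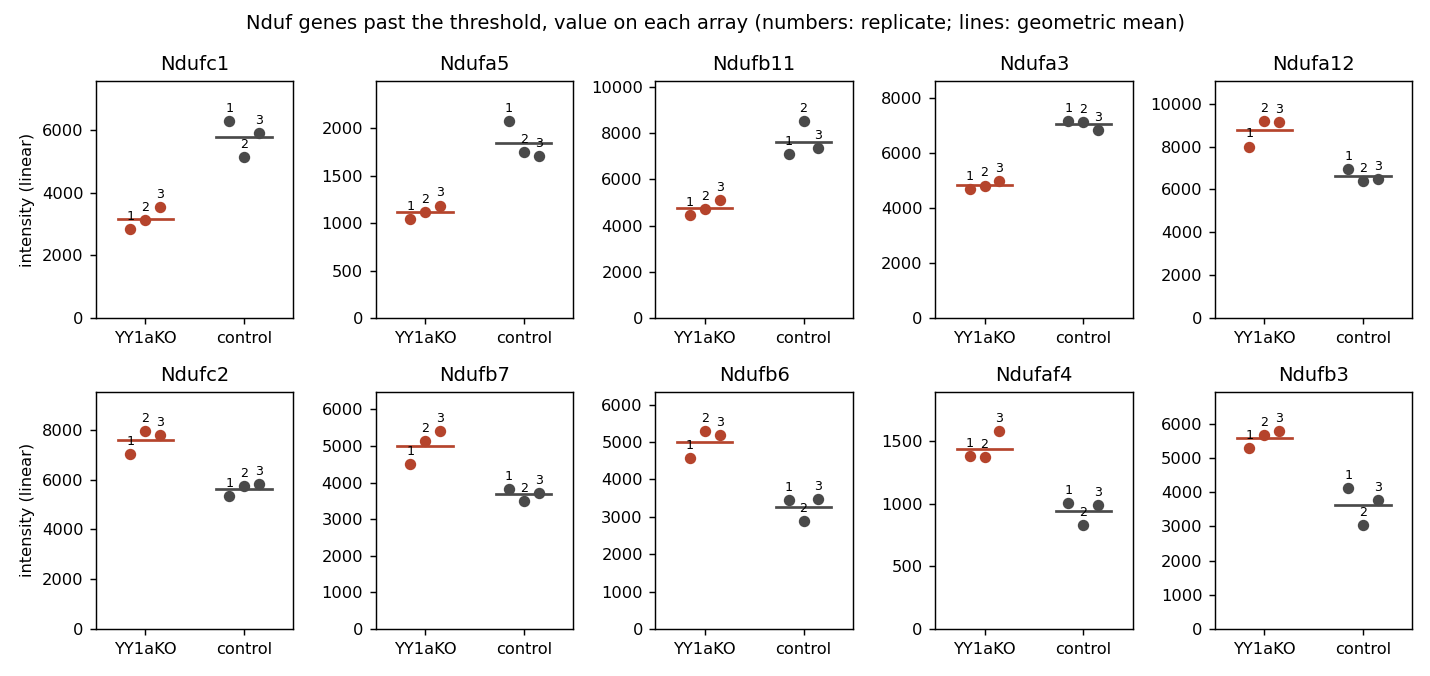
Linear RMA intensity (y axes, from 0) on each array of the 10 Nduf genes past the threshold with 6 arrays, YY1aKO left and control right, with replicate numbers and the geometric mean of each group as a line. In every panel the 3 YY1aKO values lie on one side of the 3 control values.

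Of 5 measured assembly factors with the Nduf name, 1 was higher with 6 arrays and 2 without control 2. The shares of all genes tested that were higher were 12.9% and 25.5%. None of the 5 was lower in limma. Ndufaf4, an early assembly factor, read 1378, 1374 and 1579 in YY1aKO and 1007, 831 and 990 in control (log2 fold change 0.62 ± 0.12, limma adjusted p = 0.0217). Ndufaf1, which helps build the membrane arm, read 992, 1148 and 1077 in YY1aKO and 802, 454 and 659 in control. It had the highest fold change of the 39 genes, 0.78 ± 0.22, but missed the threshold with 6 arrays (adjusted p = 0.0541, SD of 0.42 log2 units over controls), and it passed without control 2 (0.56 ± 0.12, adjusted p = 0.0129). Ndufaf3, Ndufaf5 and Ndufaf7 differed by 0.09 to 0.24 and did not pass. Ndufab1, the mitochondrial acyl carrier protein, which sits in both arms and serves fatty acid synthesis in the mitochondrion, read 6418 to 7144 in YY1aKO and 7129, 4149 and 6486 in control, a difference of 0.25 ± 0.22 with 6 arrays and 0.01 ± 0.09 without control 2. Ndufa4, named for complex I but since assigned to complex IV, differed by 0.10 ± 0.14 and also did not pass.

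The groups did not overlap for 20 of the 39 Nduf genes (51.3%), against 47.5% of all genes tested, and without control 2 for 26 (66.7%), against 69.2%. The arrays also differed within groups in a way shared by nearly all Nduf genes. YY1aKO 1 held the lowest of the 3 YY1aKO values for 38 of the 39 genes, the exception being Ndufaf4, and for 36.8% of all genes tested. This held for genes that rose and for genes that fell, and YY1aKO 3 held the highest value for 29 genes (35.9% of all genes). Relative to the mean of controls 1 and 3, the median Nduf gene lay at 0.01, 0.09 and 0.22 log2 units in YY1aKO 1 to 3, while the median of all genes lay at 0.02 or 0.03. Brown and beige markers summed to 1476, 1578 and 2852 in YY1aKO 1 to 3 and to 1490, 563 and 1316 in control 1 to 3, over 7 genes of which 3 passed the intensity filter and 2, Cidea and Cox7a1, were higher in YY1aKO. Its members did not go one way, since Cox8b had 0.22 ± 0.66 and did not pass, and Ppargc1a, below the filter, was lower in YY1aKO. Ucp1, the uncoupling protein that defines brown and beige fat, read 118, 67.6 and 306 in YY1aKO and 23.8 to 25.5 in control. Skeletal muscle markers (9 genes, 2 over the filter) summed to 3117 to 3852 in YY1aKO and 684 to 1576 in control, where Acta1 read 1107 to 1945 against 110 to 178, while the defining muscle gene Ckm read 62.5 to 72.6 against 60.3 to 68.5. The part of either marker list in the Nduf values was not tested.

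Control 2 lay below both other controls for 25 Nduf genes (64.1%, against 48.6% of all genes) and above both for 7 (17.9%, against 40.2%). Its distance from their mean was -0.86 log2 units for Ndufs1, -0.71 for Ndufab1, -0.68 for Ndufaf1 and -0.61 for Ndufs7, and 0.45 for Ndufa1, while Ndufa3, Ndufa2 and Ndufa13 lay within 0.02 of it. Epididymal markers (4 genes, 2 over the filter) summed to 147 to 159 in YY1aKO, and to 81029 in control 2, 813 in control 3 and 135 in control 1. Their part in the low readings of control 2 was not tested.

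**Figure D4:**
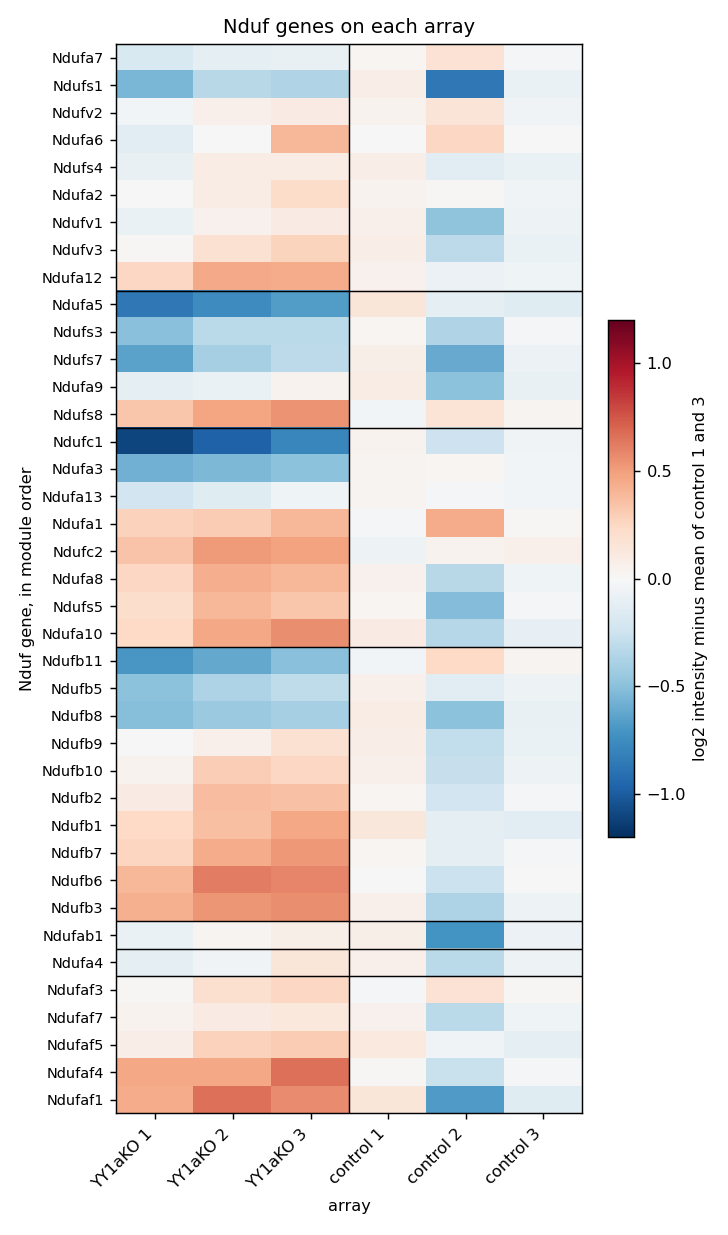
Log2 intensity minus the mean of controls 1 and 3 (colour) for the 39 Nduf genes (rows, by module) on the 6 arrays (columns, YY1aKO left). YY1aKO 1 is the lowest YY1aKO column in 38 rows, and control 2 is low in many rows, with Ndufs1 at -0.86.

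Probes of the same transcript gave a further reading, though from the same RNA. In all, 20 of the 39 genes had more than 1 probe set of their own. Among the 10 genes that passed with 6 arrays, 9 had further probe sets over the intensity filter. All 11 of these differed in the same direction as the brightest one, and 9 passed when every probe set was tested. Other genes disagreed more. Of 6 probe sets for Ndufs8, the dimmest, at 167 to 181 in YY1aKO and 157 to 191 in control, gave 0.03, while the brightest gave 0.39 and the remaining ones 0.35 to 0.47. In Ndufa7 the brightest probe set, with 5249 to 5579 in YY1aKO and 5844 to 6713 in control, did not overlap between groups, while 3 of its 4 further probe sets differed by -0.02 to 0.05. For Ndufab1 the dimmest probe set, at 81.4 to 108 in YY1aKO and 109 to 152 in control, ran against the brightest (-0.39 against 0.25). It lay below the intensity filter, and the remaining probe set, over the filter, gave 0.31.

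**Figure D5:**
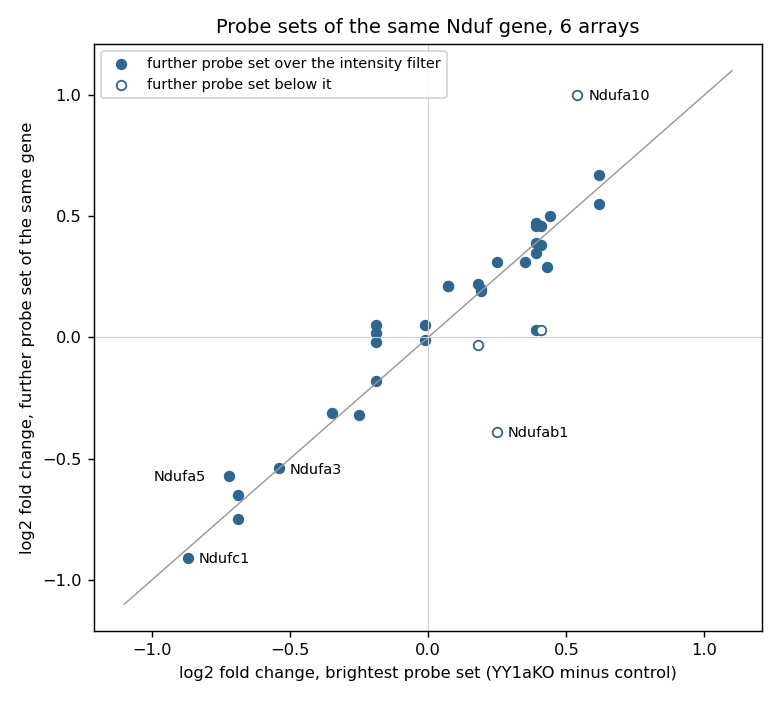
Log2 fold change (YY1aKO minus control, 6 arrays) of each further probe set (y axis) against that of the brightest probe set of the same Nduf gene (x axis), filled where the further probe set lay over the intensity filter. Points for Ndufc1 (-0.91 against -0.87) and Ndufa3 (-0.54 on both axes) lie near the line of equal change, and the dimmest probe set of Ndufs8 (0.03 against 0.39) lies off it.

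Of the assembly factors without the Nduf name, 1 of 9 tested was higher and 1 lower (median log2 fold change 0.26). Without control 2, 1 was higher and 2 were lower (median 0.20). The shares of all genes tested were 12.9% higher and 7.8% lower, and 25.5% and 19.6% without control 2. Timmdc1, which works on the membrane arm with Ndufaf1, read 334, 332 and 421 in YY1aKO and 268, 225 and 224 in control (log2 fold change 0.60 ± 0.14, limma adjusted p = 0.0345). Acad9, another partner of Ndufaf1, read 554, 580 and 631 in YY1aKO and 907, 729 and 819 in control (-0.47 ± 0.12, adjusted p = 0.0406). Members of the same assembly machinery thus lay on both sides as well. Ecsit, a further partner, had 0.26 ± 0.14 and did not pass.

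In mitochondrial iron-sulfur cluster synthesis, which supplies the cofactors of the N and Q modules, 1 of 8 genes was higher and 1 lower. Without control 2, 2 were higher and 1 lower, and the medians were 0.34 and 0.23. Of all genes tested, 12.9% were higher and 7.8% lower, and 25.5% and 19.6% without control 2. Nfu1, which delivers clusters to late targets, read 1329, 1461 and 1401 in YY1aKO and 952, 587 and 906 in control (0.81 ± 0.20, adjusted p = 0.0399). Fdx1, a ferredoxin that carries electrons for mitochondrial enzymes, read 1287, 1324 and 1575 in YY1aKO and 3151, 1906 and 3162 in control (-0.94 ± 0.23, limma adjusted p = 0.0374). In ubiquinone synthesis 3 of 9 were higher and none was lower with 6 arrays (12.9% and 7.8% of all genes tested). The median of this list was 0.22. Without control 2, 3 were higher and 2, Coq4 and Coq8a, were lower (-0.30 and -0.39, limma adjusted p = 0.0381 and 0.0186), with a median of 0.07. Coq10a, a ubiquinone-binding protein, read 842, 916 and 1103 in YY1aKO and 430, 432 and 446 in control (1.12 ± 0.12, adjusted p = 0.00765), and Coq3 and Coq7, enzymes of the ring modification, rose by 0.76 and 0.87. With no intensity filter Acad9, Nfu1, Fdx1 and Coq7 missed the threshold (limma adjusted p = 0.0547, 0.0576, 0.0539 and 0.0591).

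Enzymes that feed ubiquinone without complex I were lower where they passed, 2 of 12 with 6 arrays and 7 of 12 without control 2, with none higher in either and medians of -0.32 and -0.42. Over all genes tested, 7.8% were lower with 6 arrays, and 19.6% were lower and 25.5% higher without control 2. Chdh, the choline dehydrogenase, read 154, 104 and 135 in YY1aKO and 1197, 1541 and 1470 in control (-3.44 ± 0.18, limma adjusted p = 0.00211). Prodh, which oxidises proline, read 98.5, 96.5 and 145 in YY1aKO and 748, 632 and 1033 in control (-2.82 ± 0.24, adjusted p = 0.00636). Both changes were far larger than that of any Nduf gene. The succinate dehydrogenase subunits Sdha, Sdhb and Sdhd passed only without control 2, at -0.52, -0.54 and -0.53, while Sdhc differed by 0.10 there and did not pass. Dhodh and Sqor completed the 7, at -0.32 and -0.70.

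Of the shuttles that carry cytosolic NADH electrons to mitochondria, together with the transhydrogenase Nnt, 1 of 8 tested genes was higher and 1 lower with 6 arrays. The median was 0.08. Without control 2 the median was 0.17, with 4 genes higher and 1 lower, as Got1, Got2 and Slc25a11 of the malate-aspartate shuttle also passed (0.83, 0.46 and 0.29). Of all genes tested, 12.9% were higher and 7.8% lower with 6 arrays, and 25.5% and 19.6% without control 2. Got2 read 4457 on control 2, against 590 and 758 on controls 1 and 3. Gpd1, the cytosolic enzyme of the glycerol phosphate shuttle, read 8839, 12729 and 9910 in YY1aKO and 3155, 1202 and 2850 in control (2.23 ± 0.39, adjusted p = 0.0173), and its mitochondrial partner Gpd2 differed by 0.13 ± 0.37. Nnt read 643, 593 and 475 in YY1aKO and 1013, 864 and 1015 in control (-0.76 ± 0.15, adjusted p = 0.0211). Some C57BL6 mice carry a deletion in Nnt, and on a mixed background the part of strain alleles in this difference was not tested. Ppargc1a, of the brown and beige list, which encodes the coactivator PGC-1alpha, lay below the intensity filter and read 22.3, 15.3 and 35.0 in YY1aKO and 163, 134 and 242 in control (-2.93 ± 0.36, adjusted p = 0.0121 with no filter).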

How the data were processed

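The authors deposited an RMA intensity for each probe set on a linear scale, per the submitters' processing notes and the values. No RMA settings are given in the sources used here. Values were converted to log2 before testing. RMA corrects background, equalises the arrays' distributions and summarises probes, which hides any shift common to most genes. The platform annotation (array controls left out) gave 1 gene for 20380 probe sets, several for 691 and none for 1555. Of the first, 20351 matched RefSeq by Entrez ID and 0 symbols changed. The 60% of genes with the highest mean over 6 arrays (at least 6.83 log2, 114 linear) were fitted with limma 3.58.1 in R 4.3.3 (lmFit, eBayes), two-sided, adjusted over all of them. Ppargc1a comes from the fit without that filter. The number of arrays limits the precision. Samples were grouped by their titles. The fit was tested on simulated data. Promoters come from RefSeq (GRCm38.p6), and the array annotation names no build. Named genes are the members past the threshold, the core subunits, the members that passed only without control 2, and up to 4 genes past the threshold per related list, with Yy1, Adipoq, Lcn8, Gpx5, Ppargc1a and Ucp1 as checks. Other genes are named to account for all members or were chosen after their values were seen. The members and lists were chosen with earlier results of these data known. The remaining cell type lists are given for YY1aKO, controls 1 and 3, and control 2 in turn. Macrophage markers summed to 13380 to 15974, 16056 and 16409, and 8894. Endothelial markers summed to 1889 to 2336, 3076 and 2583, and 1023. Progenitor and fibroblast markers summed to 21491 to 26228, 29241 and 30716, and 20322. On all of these lists controls 1 and 3 lay above every YY1aKO array and control 2 below. Without control 2, 4 of 6 progenitor and fibroblast genes tested, 2 of 5 endothelial and 0 of 7 macrophage genes were lower. None was higher, and the part of these lists in the Nduf values was not tested. Alternatives are in the closing section.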

Additional observations from a re-analysis of the deposited data

How the results depend on the processing

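With 6 arrays, the 6 higher and 4 lower Nduf genes became 11 higher with the same median on every array, 10 higher and 7 lower with array weights, 13 higher at an adjusted p under 0.1 and 0 in either direction at 0.01, where 18 genes had an unadjusted p under 0.05 in limma. Over all genes tested, 16.3% were higher with the same median on every array, and 20.8% were higher and 14.6% lower with array weights. At an adjusted p under 0.1, 19.1% of all genes were higher, and at 0.01 1.72% were higher and fewer lower. Leaving out 1 array gave 0 to 12 higher and 0 to 9 lower, against 0.108% to 25.5% and 0.215% to 19.6% of all genes. Without control 2, the 12 higher and 9 lower genes became 3 and 4 at an adjusted p under 0.01 in limma (12.3% and 9.19% of all genes). With 1 YY1aKO array also left out they became 6 to 13 and 7 to 9 (18.4% to 21.1% and 14.1% to 15.7% of all genes). The mean of all probe sets, every probe set, no _s_at or _x_at probe sets (35 genes), no filter, the brightest 40% of genes (37 Nduf genes), quantile normalization again and an intensity trend with a robust prior kept both counts within 1.5 times, in both fits. No gene that passed changed direction in any of these settings that tested it. The related lists, with 6 higher and 5 lower, had 5 and 5 with the mean of all probe sets and 4 and 4 with no filter. With the stricter YY1 letters, added after the data were seen, the lower Nduf genes with a match numbered 4 instead of 6 and the higher ones 0 instead of 1. No pairing by replicate number was seen. Deviations of same-numbered arrays from their group means correlated at -0.144, -0.125 and -0.122, and 0 of 6 arrays correlated best with their own number. With 3 arrays per group and control 2 apart, these values cannot exclude a pairing. With the numbers as a block in limma, 0 Nduf genes passed in either direction with 6 arrays (14 with an unadjusted p under 0.05). Over all genes tested 0.296% were then higher and 0.43% lower. Without control 2, 2 Nduf genes were higher and 4 lower with the block, against 13.2% and 10.9% of all genes. Why the counts differ between settings was not tested, beyond the fewer arrays or stricter threshold that some use. The number of arrays limits what the 6-array fit can call, and saturation of bright probe sets and detection were not assessed here.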
